A study of Homo sapiens with 24 samples.

Results

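GNAL and GNAS are the paralogous genes of the stimulatory G alpha proteins, and their RNAs were examined here for eCLIP peaks in 293T cells. The members were all peaks that overlapped a gene window by at least 1 nt on the plus strand, on build hg19. The GNAL window ran along chromosome 18 from 11689001 to 11885700 (196.7 kb), and the GNAS window along chromosome 20 from 57414701 to 57486300 (71.6 kb). Of 269336 peaks in 7 lists, 229 were members, 29 in GNAL and 200 in GNAS. GNAL was picked because it holds a strong RBFOX2 locus, so its RBFOX2 values are given as a description without a test.

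eCLIP maps where a protein touches RNA: crosslinked complexes are precipitated with an antibody, and the RNA is compared with an input sample of the same lysate. All libraries came from 293T, a transformed line of human embryonic kidney cells, irradiated with ultraviolet light before lysis. The 7 libraries with peak lists were 2 precipitated with an antibody against RBFOX2 at 40 U of RNase I, 1 with an IgG isotype control at 40 U, and 4 with an antibody against SLBP, of which replicates 1 and 2 had 40 U and replicates 3 and 4 had 5 U. Nothing in the labels says that replicates were separate cultures, so the spread between them may be technical. The lists held 74902 and 97594 peaks for RBFOX2 replicates 1 and 2, 28361 for IgG, and 23034, 18349, 16974 and 10122 for SLBP replicates 1 to 4. The lists give no RNA level, so the abundance of the GNAL and GNAS transcripts was not compared. The number of reads behind a peak is unknown, and a place without a peak is only a place where none was listed.

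Heterotrimeric G proteins carry signals from receptors at the cell surface. GNAS encodes Gs alpha, which switches on adenylyl cyclase and so raises cyclic AMP in most tissues. GNAL encodes Golf alpha, which does the same in olfactory sensory neurons and in neurons of the striatum. The GNAS locus is imprinted and has several alternative first exons, while GNAL also has more than one start site. RBFOX2 regulates splicing and binds GCAUG elements, often in introns beside the exons it controls. SLBP binds the stem-loop of replication-dependent histone mRNAs, and neither gene encodes a histone. No hg19 sequence or exon annotation was used here, so peaks are placed by coordinate and by distance from the start of the window, and the motif was not searched.

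The 2 genes differed in how RBFOX2 peaks were laid out. GNAL had few peaks, most of them in a single tight cluster with high log2 folds over input. GNAS had more peaks, spread over the last part of its window, and they ran from below input to moderately above it. GNAL held 14 and 13 peaks in RBFOX2 replicates 1 and 2, a mean of 13.5 ± 0.71 (SD, n = 2). GNAS held 48 and 45, a mean of 46.5 ± 2.12 (SD, n = 2). Per kb of window that was 0.0712 and 0.0661 peaks for GNAL in replicates 1 and 2, and 0.670 and 0.628 for GNAS. GNAS was thus 9.42 and 9.51 times as dense in peaks within the same list. These ratios depend on how the lists split peaks. With peaks that touch end to end merged, GNAL had 4 and 6 sites and GNAS 37 and 35, a wider contrast in both replicates. The cluster then made up only 1 and 2 of the GNAL sites.

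Enriched peaks are those with a log2 fold over input of at least 3, which is 8-fold, and a −log10 p of at least 5. The folds and p-values of the peaks are the authors' own, while the 2 limits were carried over from an earlier report. In GNAL 11 of 14 peaks of RBFOX2 replicate 1 and 9 of 13 of replicate 2 were enriched. In GNAS 6 of 48 (12.5%) and 10 of 45 (22.2%) were. Over the whole lists 7.95% of the peaks of replicate 1 and 7.66% of those of replicate 2 were enriched. The IgG and SLBP libraries had 0 enriched peaks in either gene, against list-wide shares of 0.18% for IgG and 1.23%, 1.27%, 1.7% and 2.33% for SLBP replicates 1 to 4. Nothing is read from the GNAL counts, since the gene was picked by this signal. The GNAS shares lay above the list-wide shares in both libraries, by unequal amounts, and were not tested.

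The highest GNAL peak had a log2 fold of 7.86 in RBFOX2 replicate 1 and 7.66 in replicate 2. The highest GNAS peak had 4.20 in replicate 1 and 4.68 in replicate 2. Within each list the top of GNAL stood above the top of GNAS, by 3.66 and 2.99 on the log2 scale, a mean difference of 3.33 ± 0.48 (SD, n = 2). GNAL was picked for its strong locus, which favours this direction, so the differences between the genes are a description and were not tested. The lowest enriched GNAL peak, with 5.64, lay above every GNAS peak in replicate 1. In replicate 2 the enriched ranges overlapped, because the first GNAL peak had 3.28. Medians over all peaks were 6.57 and 5.22 for GNAL in replicates 1 and 2, against −0.13 and 1.17 for GNAS. The difference in medians averaged 5.38 ± 1.88 (SD, n = 2), but it fell to 0.20 when peaks that touch end to end were merged into 1 site. A merged site takes the highest fold of its pieces, so merging could not change the difference between the highest peaks.

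**Figure D1:**
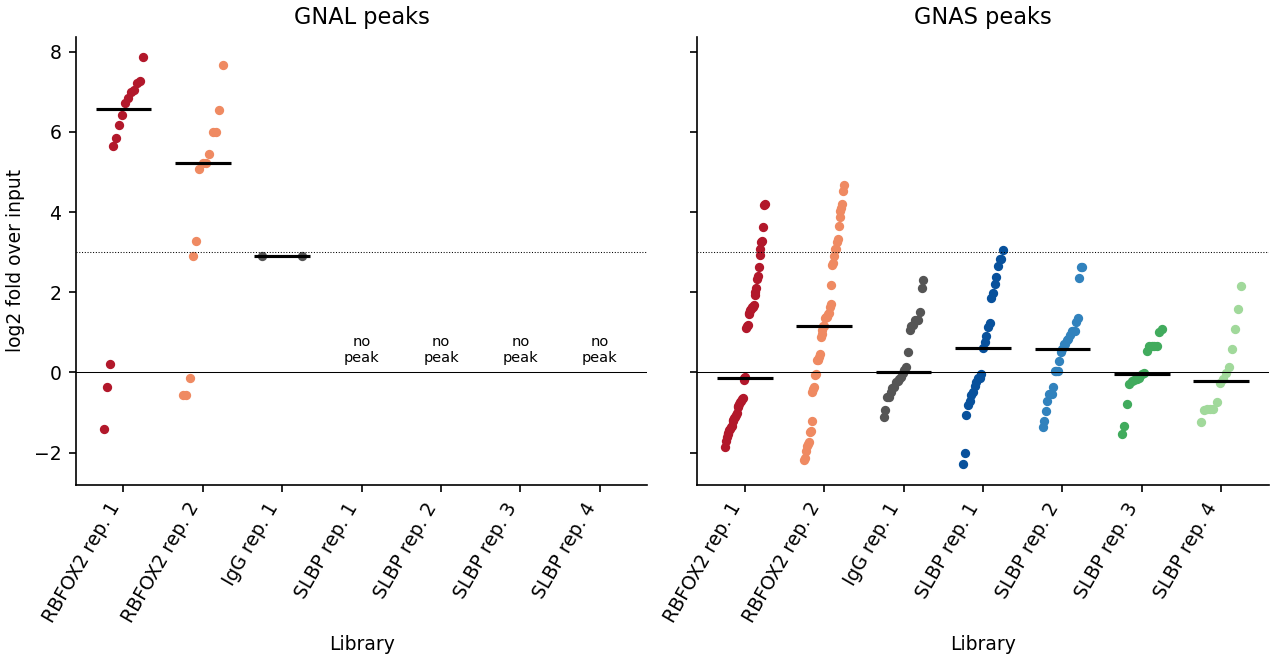
Log2 fold over input (y axis) of every peak in the GNAL window (left) and the GNAS window (right), by library; each point is 1 peak, sorted within its library, bars are medians, and the dotted line marks a log2 fold of 3. GNAL points reach 7.86 and 7.66 in the RBFOX2 libraries and the SLBP libraries have none, while GNAS points are present in all 7 libraries and reach 4.68 at most.

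The GNAL cluster was 1 of the stronger RBFOX2 sites in the lists. In RBFOX2 replicate 1 it ran from 11767145 to 11767802 on chromosome 18, 78.1 kb into the window, as 11 peaks of 35 to 107 nt that touched end to end. Merged, they formed 1 site of 658 nt, the fifth widest of 4003 enriched sites in that list, where the median was 73 nt. In replicate 2 the cluster ran from 11767149 to 11767804 as 9 enriched peaks of 35 to 162 nt. These merged into 2 sites, the wider of 340 nt, which ranked 90 by width among 4817.

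Folds varied along the cluster, and the highest pieces of both libraries overlapped. The summit of replicate 1 was the peak at 11767527 to 11767633, with a log2 fold of 7.86, rank 74 of all 74902 peaks. The summit of replicate 2 was the peak at 11767514 to 11767675, with 7.66, rank 84 of all 97594. The other peaks near the top in replicate 1 were at 11767186 to 11767254, with 7.26, at 11767290 to 11767347, with 7.21, at 11767460 to 11767526, with 7.05, and at 11767348 to 11767406, with 7.01. In replicate 2 they were at 11767347 to 11767406, with 6.55, at 11767407 to 11767458, with 5.99, at 11767465 to 11767513, also with 5.99, and at 11767759 to 11767804, with 5.44. In replicate 1 the first and last peaks were the lowest of the cluster, with 5.64 and 5.85. In replicate 2 the first was the lowest, with 3.28, while the last lay above 3 inner peaks, which had 5.07, 5.22 and 5.22. All 11 enriched peaks of replicate 1 shared 1 value of −log10 p, at which 1684 peaks of that list pile up, so the authors' p does not rank them.

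**Figure D2:**
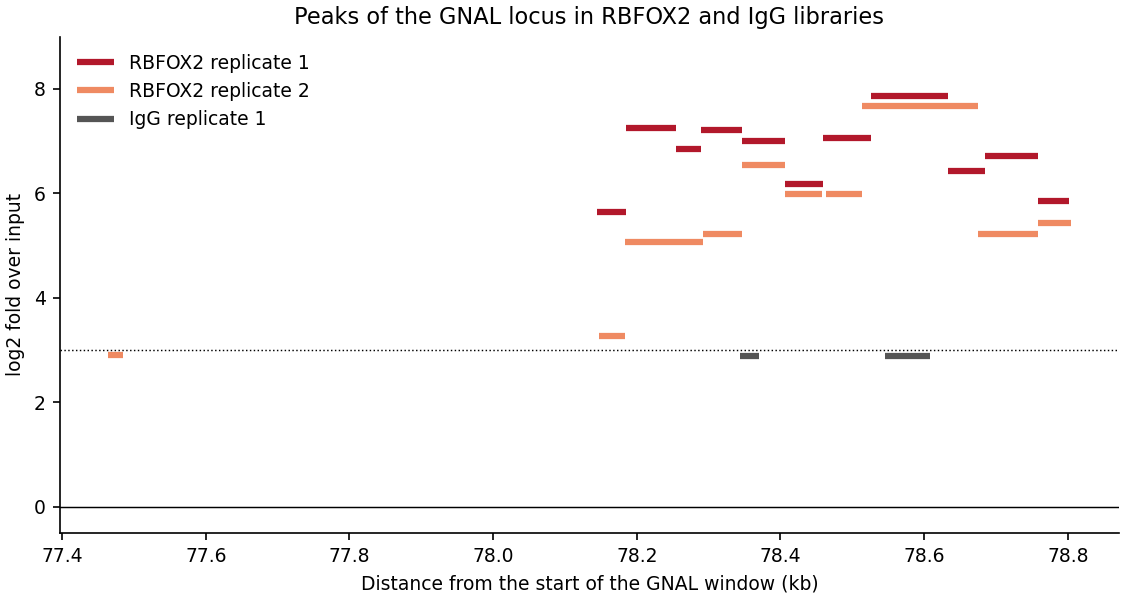
Log2 fold over input (y axis) against distance from the start of the GNAL window in kb (x axis) for the peaks of the strong locus; each bar spans 1 peak, and the dotted line marks a log2 fold of 3. RBFOX2 bars abut from 78.1 kb onward, apart from a gap of 6 nt in replicate 2, and are highest at the same place in both replicates, at 7.86 and 7.66. The 2 IgG bars lie at 2.90, and 1 earlier bar of RBFOX2 replicate 2 lies at 2.91.

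Replicate 2 gave lower folds than replicate 1 over the GNAL cluster. Each peak of replicate 1 was paired with the replicate 2 peak that overlapped it most, and 11 of 14 had such a partner, all in the cluster. The replicate 2 peaks at 11767184 to 11767292 and at 11767514 to 11767675 each served more than 1 pair, so the pairs are not independent. The value was lower in replicate 2 in 10 of the 11 pairs, with a median difference of −1.07 and a range from −2.36 to 1.23. The same direction held over the whole lists at high folds. Among 1563 pairs with a log2 fold of at least 5 in replicate 1, 74.7% were lower in replicate 2, with a median difference of −0.75; choosing pairs by a high replicate 1 value favours that direction. Over all 45408 pairs the median difference was −0.13.

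Nucleotides covered by enriched peaks of both RBFOX2 libraries formed 2 GNAL regions. The first ran from 11767149 to 11767458 (310 nt), with a log2 fold of 6.90 ± 0.50 (SD, n = 2) from the highest peak touching it in each library. The second ran from 11767465 to 11767802 (338 nt), with 7.76 ± 0.14 (SD, n = 2). Only 6 nt separated them, a gap set by replicate 2. Among the 2618 regions of this kind in the genome, ranked by the fold in the weaker library, the second stood 12 and the first 63. By width they stood 29 and 44, against a median of 64 nt over all regions.

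Elsewhere in GNAL the RBFOX2 lists held almost nothing. Replicate 2 had 1 short peak ahead of the cluster, at 11766465 to 11766484, with a log2 fold of 2.91 and a −log10 p of 1.86. A second group, 83.7 kb past the cluster, held 3 peaks in each library. Their log2 folds ran from −1.42 to 0.22 in replicate 1 and from −0.55 to −0.14 in replicate 2. The nearest plus-strand RBFOX2 peaks outside the window lay 1094 and 1085 kb before it and 98.3 and 95.95 kb after it in replicates 1 and 2, with log2 folds from −0.55 to 0.73.

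The IgG control had a weak signal in the same GNAL cluster. Its list held 2 peaks there, at 11767344 to 11767370 and 11767547 to 11767608, both with a log2 fold of 2.90 and with −log10 p of 1.13 and 2.05. Neither was enriched. The second lay within the RBFOX2 summit. The value 2.90 was shared by 2779 peaks of the IgG list (9.80%, equal within 1e-09), and 13.9% of that list stood at or above it. The SLBP lists held 0 GNAL peaks in all 4 libraries. With 1 IgG library this has no replicate check.

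GNAS peaks of all antibodies lay in the last stretch of the window, and the first 51.7 kb held none in any of the 7 lists. Split wherever more than 1 kb separated neighbouring peaks, a step chosen after the peaks were seen, the 200 peaks fell into 5 groups. The first ran from 57466450 to 57468179, the second from 57470092 to 57471592, the third from 57473930 to 57478844, the fourth from 57480445 to 57480528 and the fifth from 57484238 to 57486115. The last ended 0.185 kb before the end of the window.

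RBFOX2 enrichment in GNAS lay in the third group. That group held 23 peaks in RBFOX2 replicate 1 and 28 in replicate 2, with median log2 folds of 2.01 and 2.43. All 6 enriched peaks of replicate 1 and all 10 of replicate 2 were there, and 19 and 26 of the peaks stood above input. The IgG list held 5 peaks in it, with a median of 1.31 and a highest value of 2.31. The SLBP lists held 3, 7, 4 and 4 peaks, with medians of 1.24, 1.04, 0.60 and −0.46 for replicates 1 to 4 and a highest value of 2.83. None of the IgG or SLBP peaks of the group was enriched (0 in all 5 libraries).

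The far end of the GNAS signal stood below input in the RBFOX2 libraries. The fifth group, beside the end of the window, held 11 and 3 peaks in RBFOX2 replicates 1 and 2, all below input, with medians of −1.11 and −1.50. The IgG list held 9 there, with a median of −0.39. SLBP medians were −0.63, −0.54, −0.18 and −0.82 for replicates 1 to 4. All 7 libraries thus had medians below 0 in this group, the RBFOX2 libraries the lowest as raw folds. Folds of different lists are not known to share a scale. Medians over the whole lists were 0.73 and 0.86 in RBFOX2, 1.31 in IgG, and 1.57, 1.46, 0.66 and 1.17 in SLBP replicates 1 to 4. The order of the libraries was therefore not read as a difference between antibodies.

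In the first group the RBFOX2 libraries again had median log2 folds below 0, at −0.74 and −0.19 over 11 and 12 peaks. The IgG median was 1.05 over 7 peaks. SLBP medians were 2.04 and 1.04 at 40 U and −0.15 and 1.08 at 5 U, over 6, 7, 5 and 3 peaks. Within the group the RBFOX2 peaks nearest its start lay below input and most later ones above it. The peaks from 57466453 to 57466922 in replicate 1 ran from −1.62 to −0.74, and those from 57467266 to 57467736 ran from 1.10 to 1.94. In replicate 2 the peaks from 57467263 to 57467735 ran only from 0.31 to 0.88, and the last peak of the group, at 57468003 to 57468016, had −0.36.

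**Figure D3:**
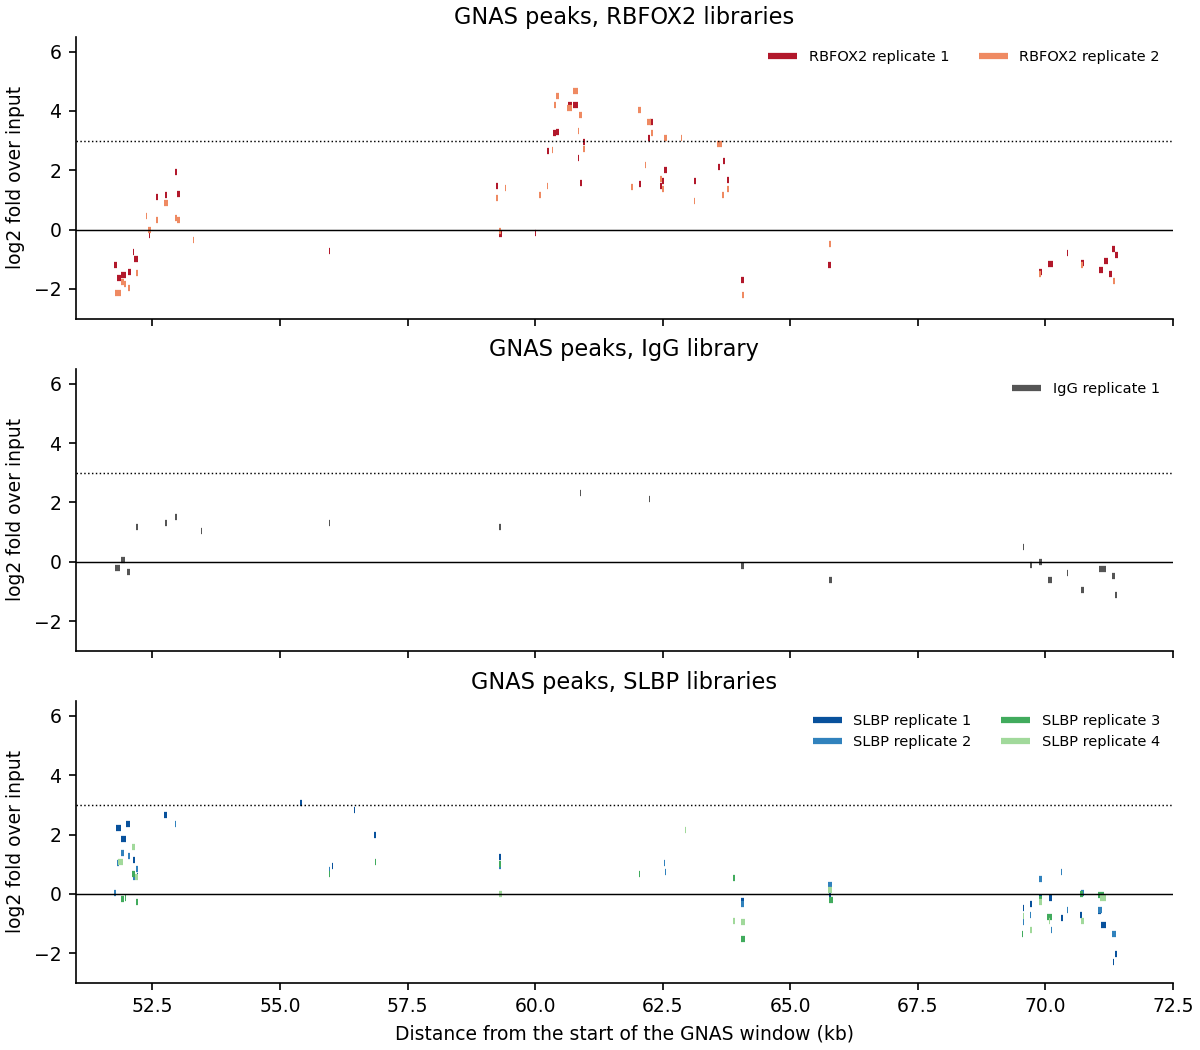
Log2 fold over input (y axis) against distance from the start of the GNAS window in kb (x axis), for RBFOX2 (top), IgG (middle) and SLBP (bottom); each bar spans 1 peak, the line marks input level and the dotted line a log2 fold of 3. RBFOX2 bars pass the dotted line only in the third group of peaks, up to 4.20 and 4.68, and lie below 0 near the end of the window; 1 SLBP bar, of replicate 1 in the second group, passes it at 3.05 with a −log10 p of 2.40.

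GNAS had 5 regions enriched in both RBFOX2 libraries, and all had lower folds than both GNAL regions. The regions from 57475062 to 57475110 and from 57475117 to 57475175 had log2 folds of 3.72 ± 0.68 and 3.90 ± 0.87 (SD, n = 2). The region from 57475352 to 57475427 had 4.14 ± 0.07 (SD, n = 2). The highest, from 57475452 to 57475536, had 4.44 ± 0.33 (SD, n = 2). These 4 lay within 475 nt. After a gap of 1372 nt came the widest, 57476909 to 57477012 (104 nt), with 3.64 ± 0.01 (SD, n = 2).

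Set against the 2618 regions of the genome by the fold in the weaker library, the best GNAS region stood 1050 and the others between 1187 and 2305. Together the GNAS regions covered 373 nt within 1951 nt, and the GNAL regions 648 nt within 654 nt. IgG peaks touched 2 of the 5 GNAS regions, the 1 from 57475452 with a log2 fold of 1.31 and the 1 from 57476909 with 2.12. No SLBP peak touched any of them (0 in each of the 4 libraries).

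The enriched GNAS peaks outside these regions were all in RBFOX2 replicate 2, which passed the limits at more places. They were at 57475561 to 57475628, with a log2 fold of 3.87, at 57476719 to 57476774, with 4.03, and at 57477221 to 57477293, with 3.07. Enriched GNAS nucleotides numbered 388 in replicate 1 and 623 in replicate 2. In replicate 1 peaks at the same 3 places had 1.58, 1.55 and 2.01, above input but under the limit. A further enriched piece of replicate 2, at 57475533 to 57475560 with 3.32, overlapped the end of an enriched peak of replicate 1.

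GNAS folds were correlated between the RBFOX2 replicates, while single pairs could differ widely. Of the 48 peaks of replicate 1, 37 had an overlapping partner in replicate 2, and the sign of the log2 fold was the same in all 37 pairs. The log2 fold of replicate 2 minus replicate 1 ran from −1.55 to 2.48, with a median of −0.24. Pearson's r across the pairs was 0.92 and Spearman's rank correlation 0.92, as a description of 37 places in 2 lists. In GNAL the 11 pairs gave 0.49 and 0.19, over a narrower span of folds. In both genes some replicate 2 peaks served more than 1 pair.

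GNAS peaks that lay at peaks of other antibodies had the lower median RBFOX2 folds. In RBFOX2 replicate 1, 30 of 48 GNAS peaks touched an IgG or SLBP peak, with a median log2 fold of −0.84, and the 18 that touched none had a median of 1.66. In replicate 2, 21 of 45 touched one, with a median of −0.41, and the 24 others had 1.46. The ranges overlapped in both libraries: touching peaks reached 4.20 and 4.68, and peaks that touched none went down to −1.32 and −0.36. Enriched peaks did not follow the medians in replicate 2, with 5 of the 21 touching peaks and 5 of the 24 others. In replicate 1 they were 2 of 30 and 4 of 18.

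At 7 places in GNAS every list held a peak, and GNAL had 0 such places. RBFOX2 values were below 0 at all 7 in both replicates. At 57466594 to 57466632 the log2 folds were −1.54 and −1.78 in RBFOX2, 0.06 in IgG and 1.86, 1.36, −0.17 and 1.08 in SLBP replicates 1 to 4. At 57473997 to 57474026, at the edge of the enriched group, they were −0.15 and −0.06 in RBFOX2, 1.16 in IgG and 1.24, 0.93, 1.01 and −0.0041 in SLBP. At 57485390 to 57485425, near the end of the window, they were −1.11 and −1.20 in RBFOX2, −0.94 in IgG and −0.70, 0.04, −0.01 and −0.92 in SLBP. Both RBFOX2 values were lower than all values of the other antibodies at 6 of the 7 places, including these 3, which were chosen after their values were seen. The exception was 57480459 to 57480499, where RBFOX2 replicate 2 had −0.48 and IgG −0.62. These are raw folds of lists with unlike levels. At 57485390 to 57485425 the percent of the list at or above the peak was 93.2 and 91.3 in RBFOX2 and 98.3 in IgG. It was 97.5, 89.5, 76.7 and 94.5 in SLBP replicates 1 to 4. IgG and SLBP replicates 1 and 4 thus stood lower within their own lists there than RBFOX2. At 57466594 to 57466632 both RBFOX2 libraries stood lowest of all by this measure, at 96.9 and 96.6. IgG had 88.2 there, and SLBP replicates 1 to 4 had 32.5, 52.1, 82.6 and 55.9. At 57473997 to 57474026 RBFOX2 had 74.7 and 69.8, and only SLBP replicate 4 stood lower, at 83.0. The order within lists thus differed from place to place.

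GNAS took a smaller share of the RBFOX2 lists than of the SLBP lists. It held 6.41 and 4.61 of every 10000 peaks in RBFOX2 replicates 1 and 2, 8.46 in IgG, and 10.9, 14.7, 10.0 and 13.8 in SLBP replicates 1 to 4. The RBFOX2 mean was 5.51 ± 1.27 (SD, n = 2) and the SLBP mean 12.4 ± 2.27 (SD, n = 4), a difference of −6.84. The groups did not overlap, and the two-sided exact permutation test gave p = 0.133, the smallest this design can give (0.267 adjusted over 2 tests by Benjamini-Hochberg). Lists differ in length and in how many weak peaks they hold, and their part in the difference was not tested.

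Median log2 folds of GNAS peaks did not separate the antibodies. They were −0.13 and 1.17 in RBFOX2 replicates 1 and 2, 0.02 in IgG, and 0.62, 0.58, −0.04 and −0.21 in SLBP replicates 1 to 4. The difference between RBFOX2 and SLBP means, 0.52 ± 0.92 (SD, n = 2) and 0.24 ± 0.42 (SD, n = 4), was 0.28 (two-sided exact permutation p = 0.667, 0.667 adjusted over 2 tests), smaller than the spread between replicates. The difference was −0.37 without RBFOX2 replicate 2 and 0.93 without replicate 1, so its sign rests on single libraries. Below input lay 52.1% and 31.1% of GNAS peaks in RBFOX2 replicates 1 and 2, 50% in IgG, and 48.0%, 29.6%, 58.8% and 64.3% in SLBP replicates 1 to 4. Over whole lists the share below input was 32.6% and 31.0% in RBFOX2, 10.7% in IgG, and 7.02%, 9.45%, 23.4% and 17.0% in SLBP.

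Other genes of the pathway were searched for the same kind of region. Of 25 listed genes, 17 could be placed, with windows from general knowledge of hg19. Those kept matched the RefSeq table on GRCh38.p14 in chromosome and width (within 10%), and a separate reference list in strand. This was a check of size and not of position. The 8 left out had no strand listed or a width beyond the limit, most lacking only the strand, and were not searched. A region enriched in both RBFOX2 libraries was present in 1 of the 17, GNB1, which encodes a G beta subunit. The share of all genes with such a region was not computed, so this count is a description of the listed genes alone. GNB1 had 6 and 7 enriched peaks in RBFOX2 replicates 1 and 2, with highest log2 folds of 5.38 and 5.50, above GNAS and below GNAL in both libraries. Its regions were on the minus strand of chromosome 1 at 1807848 to 1808006 and 1808024 to 1808048.

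None of the 8 other G alpha genes placed had such a region, a count that also has no share over all genes beside it. GNA11, a Gq family alpha subunit, came closest: its highest log2 fold was 3.77 in RBFOX2 replicate 1, where 0 of 7 peaks were enriched, and 4.63 in replicate 2, where 6 of 10 were. GNAI2 and GNAI3, inhibitory alpha subunits, had 1.41 and 1.00 in replicate 1 and 2.51 and 1.32 in replicate 2. GNA14 had no peak in either library.

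Among the effectors, ADCY3, an adenylyl cyclase known as the partner of Golf in olfactory neurons, had highest log2 folds of 3.66 and 3.84 in RBFOX2 replicates 1 and 2, but 0 peaks passed the p limit in either. PRKACB, a catalytic subunit of protein kinase A, had 3.97 and 3.32, also with 0 enriched peaks. PRKACA, another catalytic subunit, had 11 and 10 peaks with highest values of only 0.62 and 1.32. The IgG list had enriched peaks in 0 of the 17 genes, and at least 1 SLBP list in 1, GNB1, with a highest value of 3.07 in SLBP replicate 1. Enriched peaks made up only 0.18% of the whole IgG list and 1.23% to 2.33% of the whole SLBP lists. The share over all genes was not computed, so nothing is read from these counts.

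**Figure D4:**
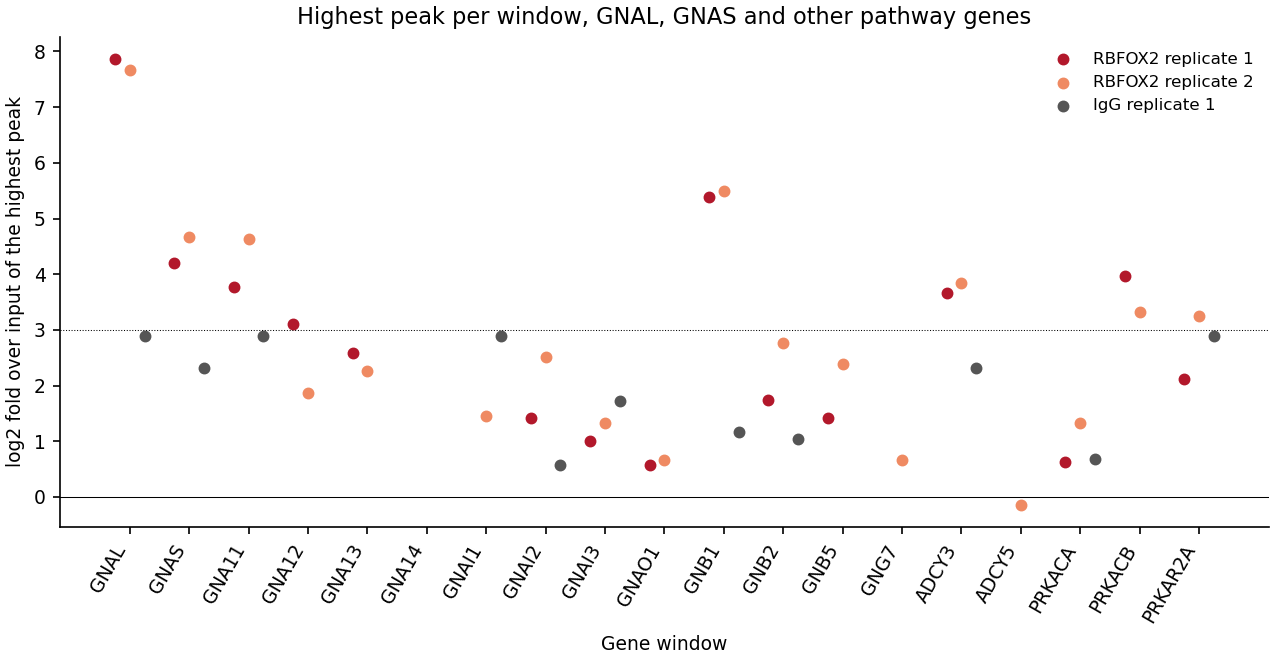
Log2 fold over input of the highest peak (y axis) in each gene window (x axis), for both RBFOX2 libraries and IgG; a missing point means no peak was listed, and the dotted line marks a log2 fold of 3. GNAL, which was picked for its strong locus, is highest in both RBFOX2 libraries, followed by GNB1 at 5.38 and 5.50 and GNAS at 4.20 and 4.68.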

How the data were processed

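Per the submitters' processing notes, reads were handled with cutadapt, STAR, GATK, Picard and SAMtools on hg19, while no peak caller is named there. Each deposited list gives, per peak, the authors' −log10 p-value and log2 fold of immunoprecipitation over the paired input; units were read from the values and the naming of the lists, which have no header. The −log10 p runs to a ceiling of 400 and is 0 wherever the log2 fold is below 0. Each list belongs to 1 library. Peak lists hold no expression values, so markers of 293T cells were not checked. Coordinates count from 1.

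Peaks were assigned to windows, counted and compared with Python 3.11.15, pandas 2.3.3 and numpy 2.4.6; the counting and the exact permutation test were tested on simulated data. Folds of single peaks carry no interval, because the depth is unknown. The members, windows and gene lists were chosen with earlier results of these data known. The peaks named are, per gene and RBFOX2 library, the 5 highest enriched ones, all enriched GNAS peaks if there were 10 or fewer, and all regions enriched in both libraries; in the other libraries the highest peak. Other peaks were singled out after their values were seen. Input samples entered only through the folds, and the 10 samples of an RNase I series were not analysed here. Replicate numbers are not tied to a shared batch by the labels. Alternatives covered the limits, the overlap rule, merging of touching peaks and left-out libraries.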

Additional observations from a re-analysis of the deposited data

How the results depend on the processing

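Over 10 results and 69 alternatives, 4 reversed the direction and 7 moved a value or count beyond its replicate spread or by over 1.5 times. For the 2 tested differences only the direction and the side of the threshold were judged, so their sizes could change further. Merging touching peaks gave 5 GNAL peaks, of which 1.5 were enriched (means of 2 RBFOX2 libraries), and a difference in medians of 0.20; that difference was 2.68 over peaks with a −log10 p of at least 3. With a log2 fold of at least 4 and a −log10 p of at least 10, GNAS kept 3 enriched peaks on average and 2 regions, while GNAL had 9.5 and 2. Leaving out 1 RBFOX2 library, regions were counted in the other alone: 1 to 2 in GNAL and 4 to 7 in GNAS. Peaks ranged from 13 to 14 and 45 to 48, enriched peaks from 9 to 11 and 6 to 10, the difference between highest folds from 2.99 to 3.66 and between medians from 4.05 to 6.71. The RBFOX2 minus SLBP difference in GNAS peaks per 10000 ran from −7.74 to −5.95 over left-out libraries and was negative throughout; the difference in GNAS medians ran from −0.37 to 0.93. With only the 40 U SLBP libraries it was −0.0807 and reversed; the cause was not tested.

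Numbers 1 and 2 of RBFOX2 and SLBP are shared in the labels without a stated link. With the replicate block the differences were −7.27 (exact p = 0.5) and −0.0807 (exact p = 1). With 2 pairs the smallest possible p is 0.5, so neither test could pass. Same-numbered libraries deviated in opposite directions in their peak shares over 25 chromosomes (r = −0.43). Pairing the numbers crosswise was chosen after seeing the data. It must give the same mean differences, and the smallest possible p was again 0.5, so it decides nothing. Depth is unknown, so it sets no bound on a single fold.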

Other observations

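The opposite strand of both windows was nearly empty. In the GNAL window the RBFOX2 lists held 0 minus-strand peaks in replicate 1 and 1 in replicate 2, with a log2 fold of 0.19. In the GNAS window they held 1 and 2, with log2 folds of 0.41 in replicate 1 and 0.86 for both in replicate 2. None of them was enriched (0 in both libraries), and the IgG and SLBP lists held 0 in both windows.

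Outside the GNAS window the nearest plus-strand RBFOX2 peaks lay 124 kb before it and 70.1 and 70.0 kb after it in replicates 1 and 2. Those before it had log2 folds of 0.69 and 0.64, and those after it −0.95 and −1.05.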
